A study of Mus musculus with 6 samples.

Results

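The genes described here encode the machinery that copies DNA and divides the cell, measured by bulk RNA sequencing in plaque of the mouse aortic arch. They are 43 genes listed by symbol, with no threshold on their values, though earlier results of these data were known when the list was made. All 43 were found among the 24062 symbols of the count table. They fall into 20 S-phase genes, which act before and during DNA replication, and 23 mitotic genes, which act as the cell divides. All 43 passed the filter on low counts that left 15222 genes for testing, and the lowest count of any of them in any library was 53. Mice of both groups lacked the low-density lipoprotein receptor, were of strain C57BL/6, were fed the high-fat diet TD88137 over 12 weeks, and then spent 3 weeks on a low-fat diet (LFD). The vehicle group (n = 3 libraries) and the ABT263 group (n = 3) differed by injections into the peritoneum at 100 mg/kg of ABT263 once daily, which the labels place in week 1 of the LFD. ABT263 (navitoclax) blocks members of the BCL-2 family that keep cells alive, and senescent cells are among those it kills. The age and sex of the mice, the duration of dosing and whether each library came from 1 animal are not given in the labels, so p-values measure the spread between these libraries, which may in part be technical.

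Cells that leave quiescence pass from the D-type cyclins to cyclin E and the E2F transcription factors, which switch on the genes for helicase loading, nucleotide supply and the replication fork. Genes for the spindle, the kinetochore and mitotic kinases follow later in the cycle, and many of them carry a promoter element called the cell cycle genes homology region (CHR), which is bound by the DREAM complex in resting cells and by MYBL2 and FOXM1 complexes in dividing ones. Senescent cells are defined by a lasting exit from the cycle. In atherosclerotic plaque, local division of macrophages is a known source of lesion cells, and smooth muscle cells also divide as they form the fibrous cap.

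Promoter sequences are shown because both sets of genes varied together between libraries and are known for different promoter elements. RefSeq windows on GRCm38.p6 were on hand for 36 of the 43 genes, with 4 mitotic and 3 S-phase genes not in that table. Each window ran from 250 bases before the annotated start to 50 bases after it, and both strands were searched. A CHR word (TTTGAA or TTCGAA) was found for 15 of 19 mitotic genes (78.9%), for 3 of 17 S-phase genes (17.6%) and for 21.7% of all 27025 genes with a window. In the 250 bases before the start alone, the share was 47.4% of mitotic genes (9 of 19) against 19.6% of all genes, so for 6 of the 15 every match reached past the start. An E2F word (TTCCCGC or TTCGCGC or TTGCCGC or TTGGCGC) was found for 10 of 17 S-phase genes (58.8%), for 3 of 19 mitotic genes (15.8%) and for 10.9% of all genes. The CCAAT box (CCAAT), the site of the factor NF-Y, was found for 17 of 19 mitotic genes (89.5%), 11 of 17 S-phase genes (64.7%) and 41.1% of all genes. Overlaps between a CCAAT match and an E2F match came to 3 pairs, in Ccnb1 and Mcm7. A match describes the letters of a window and does not show that a factor binds there. The stretches below end at the base before the annotated start and read 5′ to 3′ on the strand of the gene, with the letters of CHR, E2F and CCAAT words in capitals. Top2a, Cdk1 and Cdc20 are examples of mitotic genes, and Mcm5, Mcm6 and Chaf1a of S-phase genes, and they do not represent their sets. Each mitotic stretch shown holds a CHR word, found before the start for 9 of 19 mitotic genes. Each S-phase stretch holds an E2F word, found before the start for 8 of 17 S-phase genes. Cdk1 is among the 3 mitotic genes with an E2F word.

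Top2a (chr11:99024190-99024389, minus strand): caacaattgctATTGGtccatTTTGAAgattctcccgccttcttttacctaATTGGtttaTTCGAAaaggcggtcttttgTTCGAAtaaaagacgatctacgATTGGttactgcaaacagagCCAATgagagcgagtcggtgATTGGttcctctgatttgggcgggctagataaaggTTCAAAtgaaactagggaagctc
Cdk1 (chr10:69352913-69353112, minus strand): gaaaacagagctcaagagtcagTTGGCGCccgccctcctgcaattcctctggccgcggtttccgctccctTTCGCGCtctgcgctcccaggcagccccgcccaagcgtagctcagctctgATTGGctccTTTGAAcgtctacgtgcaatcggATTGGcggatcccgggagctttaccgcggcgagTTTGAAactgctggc
Cdc20 (chr4:118437344-118437463, minus strand): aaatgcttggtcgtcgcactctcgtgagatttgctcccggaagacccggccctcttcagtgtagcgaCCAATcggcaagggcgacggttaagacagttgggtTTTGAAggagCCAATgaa
Mcm5 (chr8:75109329-75109508, plus strand): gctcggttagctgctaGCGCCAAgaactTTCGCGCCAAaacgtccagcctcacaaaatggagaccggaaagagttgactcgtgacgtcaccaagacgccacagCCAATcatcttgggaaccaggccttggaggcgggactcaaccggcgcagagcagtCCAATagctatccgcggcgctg
Mcm6 (chr1:128359706-128359825, minus strand): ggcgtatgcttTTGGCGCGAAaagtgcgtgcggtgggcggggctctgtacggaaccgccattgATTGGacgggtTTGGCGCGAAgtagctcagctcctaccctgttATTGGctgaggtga
Chaf1a (chr17:56040296-56040415, plus strand): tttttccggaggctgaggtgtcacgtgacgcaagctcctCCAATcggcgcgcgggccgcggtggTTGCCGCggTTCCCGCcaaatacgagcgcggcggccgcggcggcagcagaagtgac

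In these stretches Top2a held 4 CHR words and 5 CCAAT boxes with no E2F word, and Cdk1 held 2 words of each of the 3 kinds. Mcm6 held 4 E2F words, as overlapping forward and reverse matches, and no CHR word.

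Divided by exon length, the S-phase genes stood higher than the mitotic genes. The unit is CPM (the count as a share of the library's TMM-scaled total) divided by the length of the union of exons in kilobases. In the vehicle libraries the median over genes was 4.53 CPM per kb for S-phase genes and 2.63 for mitotic genes. Pcna, the sliding clamp of the replication fork, led with 51.1 ± 12.1 CPM per kb (SD, n = 3). It was followed by the helicase genes Mcm6 (13.1 ± 3.94) and Mcm3 (10.8 ± 2.86), whose spreads overlapped each other, and then E2f1 (8.38 ± 2.33). Ccnb2 was the highest mitotic gene at 6.42 ± 2.502 CPM per kb. The lowest values were those of Cenpf (0.568 ± 0.248) and the cyclin gene Ccne2 (0.459 ± 0.0621). These levels rest on GENCODE M21 lengths, and the annotation behind the counts is not given in the sources used here.

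The edgeR quasi-likelihood test called none of the 43 genes between ABT263 and vehicle at an adjusted p of 0.05. It called 0 of all 15222 genes (0.0%), and at an unadjusted p under 0.05 it listed 0 of the 43 genes against 8.38% of all genes. DESeq2 called 153 genes (1.01% of all, 1.06% of those given an adjusted p) and limma-voom 0, none of the 43 by either tool. At an unadjusted p under 0.05, DESeq2 listed 11.3% and limma-voom 5.62% of all genes. The smallest adjusted p among the 43 was 0.733 by edgeR, 0.704 by DESeq2 and 0.835 by limma-voom. The vehicle and ABT263 libraries overlapped for every one of the 43 genes, whereas they did not overlap for 12.0% of all genes (5.68% higher and 6.31% lower with ABT263). Log2 fold changes (ABT263 over vehicle) ran from -0.70 for Cdt1 to 0.48 for Ube2c. They were negative for 18 of 23 mitotic genes (median -0.08) and for 14 of 20 S-phase genes (median -0.21), beside 49.9% of all genes tested (median 0.00080).

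A fold change without a call is not a fold change of 0. The 95% interval of the fold change lay within a 2-fold change in either direction for 16 of the 43 genes, 11 S-phase and 5 mitotic. It still allowed a 2-fold fall for 24 genes and a 2-fold rise for 10. The narrowest interval was that of Mcm4, from -0.33 to 0.42 on the log2 scale, and Tk1 had an interval from -1.86 to 0.73.

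**Figure D1:**
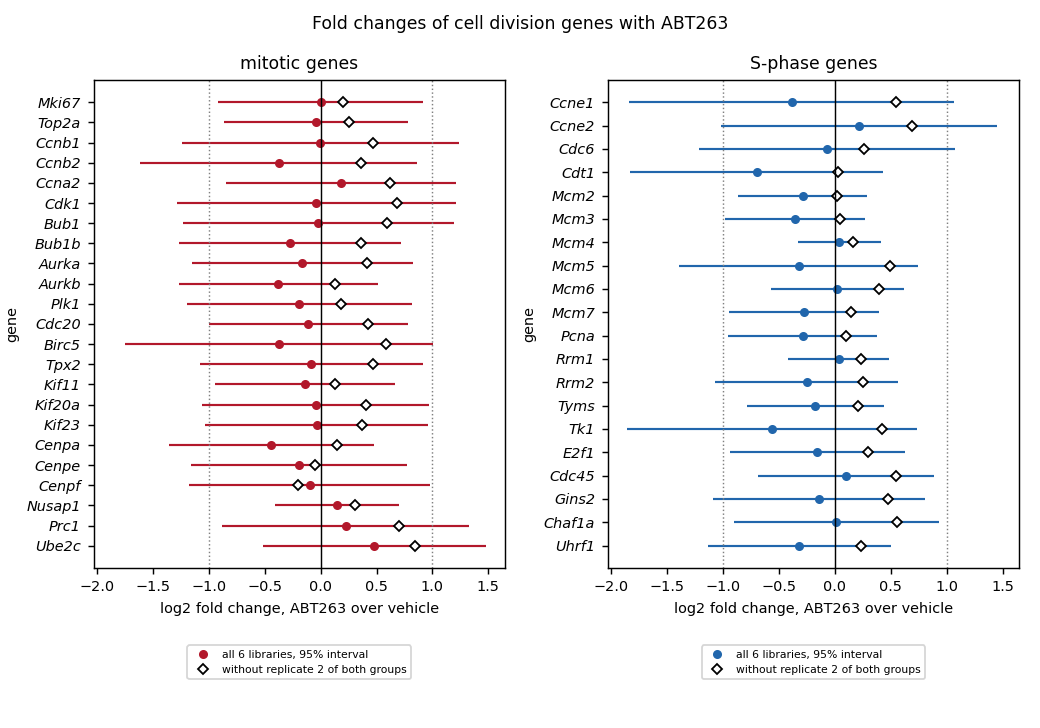
Log2 fold change (ABT263 over vehicle) of each of 23 mitotic genes (left) and 20 S-phase genes (right). Filled circles with bars are the edgeR estimates and 95% intervals over all 6 libraries, open diamonds the estimates without replicate 2 of both groups, and dotted lines mark a 2-fold change. Every bar crosses 0, and 41 of 43 diamonds lie above 0, beside 52.4% of all genes in the fit without replicate 2 of both groups. Replicate 2 had the highest mean of these genes among vehicle libraries and the lowest among ABT263 libraries. The shift of the diamonds followed from leaving them out and is no evidence of a rise.

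Replication is prepared in G1 by licensing, when CDC6 and CDT1 load the MCM helicase onto origins. Cdt1 stood at 17.2, 28.1 and 11.3 CPM in vehicle replicates 1 to 3 and at 16.6, 5.88 and 12.4 CPM in ABT263 replicates 1 to 3. Vehicle replicate 2 was the highest library and ABT263 replicate 2 the lowest, and the other 4 lay between 11.3 and 17.2. The log2 fold change was -0.70 (SE 0.47, edgeR adjusted p = 0.733), the lowest among the 43 genes, and without replicate 2 of both groups it was 0.024. Cdc6 measured 6.64, 6.89 and 5.13 CPM in vehicle replicates 1 to 3 and 10.5, 3.69 and 3.58 CPM in those of ABT263. Cdc6 was thus highest in ABT263 replicate 1 and lowest in ABT263 replicate 3, unlike most of the genes here.

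The helicase itself is built from MCM2 to MCM7 and is activated by CDC45 and the GINS complex. All 6 Mcm genes were highest in vehicle replicate 2, against 30.0% of all genes tested. Mcm2 (chromosome 6, 88883474 to 88898780, mm10) measured 29.6, 34.3 and 24.2 CPM in vehicle replicates 1 to 3 and 29.1, 17.6 and 25.5 CPM in those of ABT263 (log2 fold change -0.29, SE 0.24). Mcm3 measured 34.0, 52.8 and 34.4 CPM in vehicle replicates 1 to 3 and 38.1, 23.98 and 32.5 CPM in those of ABT263 (log2 fold change -0.36, SE 0.26). In both, ABT263 replicate 2 was the lowest library. The remaining ABT263 libraries of Mcm2 lay within the vehicle range, and for Mcm3 replicate 3 lay just under it. Mcm5 showed the widest span of the Mcm genes, with 19.6, 50.7 and 20.9 CPM with vehicle and 32.2, 15.6 and 25.01 CPM with ABT263. Its fold change turned from -0.32 over all libraries to 0.26 without vehicle replicate 2. Mcm4 was the steadiest of the 43 genes, with a ratio of highest to lowest library of 1.23 (22.6 to 27.7 CPM with vehicle and 24.1 to 26.3 with ABT263). Mcm6 measured 47.7, 82.0 and 53.5 CPM in vehicle replicates 1 to 3 and 66.0, 53.0 and 67.1 CPM in those of ABT263 (log2 fold change 0.023, SE 0.25), with its lowest value in vehicle replicate 1. Mcm7 measured 24.3, 44.3 and 26.9 CPM in vehicle replicates 1 to 3 and 32.2, 22.4 and 24.3 CPM in those of ABT263 (log2 fold change -0.28, SE 0.28). Cdc45 ranged from 4.46 to 8.67 CPM with vehicle and from 5.41 to 7.35 CPM with ABT263, and Gins2, a GINS subunit, from 6.43 to 13.7 and from 6.03 to 11.0 CPM. Of the 8 helicase genes, 5 had a negative fold change. Mcm7 hosts the microRNA genes Mir25 and Mir93 and its exons overlap Ap4m1 and Cops6, so its count is uncertain.

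At the fork, PCNA tethers the polymerases, CHAF1A is a subunit of the factor that places histones on new DNA, and UHRF1 directs the methylation of the new strand. Pcna (chromosome 2, 132249162 to 132253314, mm10) measured 118, 154 and 95.8 CPM in vehicle replicates 1 to 3 and 126.5, 71.9 and 102 CPM in those of ABT263. ABT263 replicate 2 was again the lowest library, and the other ABT263 libraries lay among the vehicle values (log2 fold change -0.29, SE 0.28, adjusted p = 0.835). Chaf1a measured 8.81, 13.6 and 7.95 CPM in vehicle replicates 1 to 3 and 14.2, 5.91 and 10.5 CPM in those of ABT263, which gave a log2 fold change of 0.014 (SE 0.38). Uhrf1 ranged from 16.0 to 28.6 CPM with vehicle and from 10.5 to 20.5 CPM with ABT263 (log2 fold change -0.32, SE 0.34).

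Nucleotides for replication come from ribonucleotide reductase (RRM1 and RRM2), thymidylate synthase (TYMS) and thymidine kinase (TK1). Rrm2, the subunit whose level follows the cycle, measured 15.5, 21.7 and 12.3 CPM in vehicle libraries, against 17.02, 8.48 and 16.0 CPM with ABT263. Tk1 measured 10.5, 30.5 and 11.9 CPM in vehicle replicates 1 to 3 and 15.6, 5.73 and 14.3 CPM in those of ABT263, a span of 5.32-fold between the highest and the lowest library. Its log2 fold change of -0.57 (SE 0.54) became 0.089 without vehicle replicate 2. Rrm1 stayed between 32.7 and 47.4 CPM in all libraries (log2 fold change 0.032, SE 0.19). Tyms ranged from 15.4 to 24.5 CPM with vehicle and from 13.3 to 18.9 CPM with ABT263. Exons of Tk1 overlap those of Afmid.

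Entry into S phase is set by cyclin E and E2F1. E2f1 measured 26.7, 33.6 and 18.9 CPM in vehicle replicates 1 to 3 and 30.1, 14.9 and 26.1 CPM in those of ABT263 (log2 fold change -0.16, SE 0.33). Ccne1 had the widest span of all 43 genes, 5.78-fold, at 4.19, 8.82 and 3.29 CPM with vehicle and 6.24, 1.53 and 4.71 CPM with ABT263. Vehicle replicate 2 was its highest library and ABT263 replicate 2 its lowest, as for most S-phase genes. Ccne2 was scarce, at 1.41 to 1.84 CPM with vehicle and 0.785 to 2.85 CPM with ABT263 (log2 fold change 0.21, SE 0.52).

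**Figure D2:**
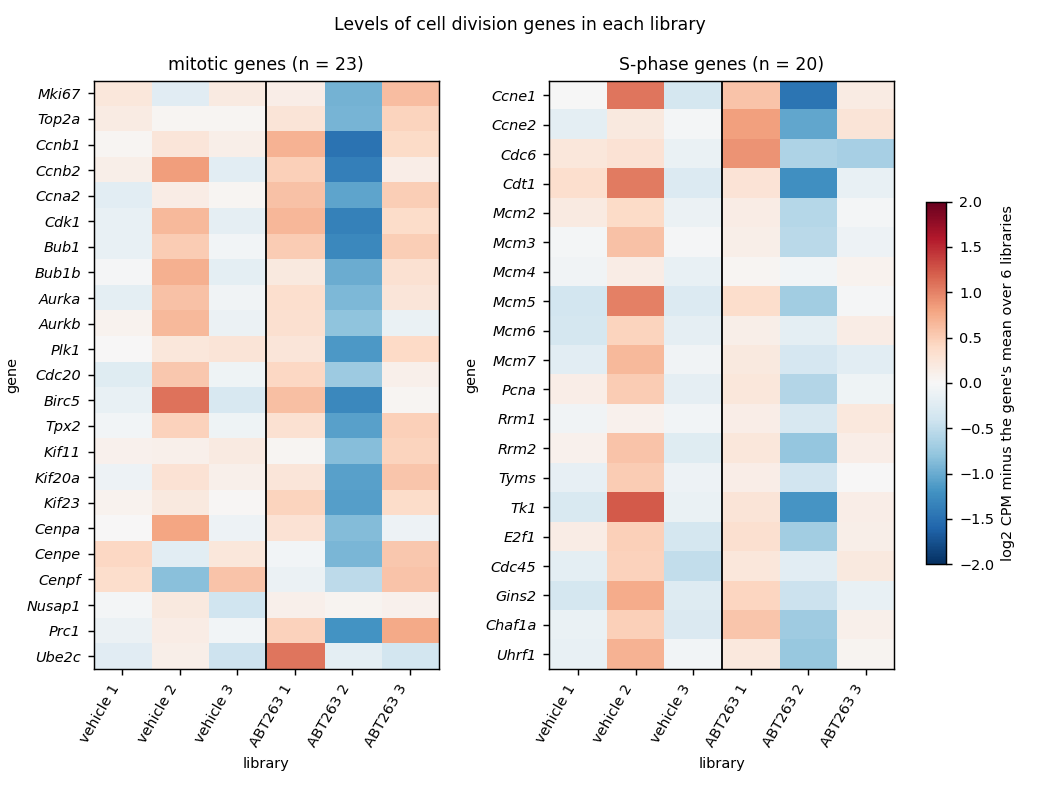
Level of each gene in each of the 6 libraries, as log2 CPM minus the mean of that gene over the libraries, with mitotic genes on the left and S-phase genes on the right (red is above the mean, blue below, and the black line divides vehicle from ABT263). ABT263 replicate 2 is the lowest library for 36 of the 43 genes (20.8% of all genes tested). Vehicle replicate 2 is the highest for 16 of the 20 S-phase genes (30.0% of all genes tested).

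Among the mitotic genes, Mki67 and Top2a mark cycling cells in tissue, the first coating mitotic chromosomes and the second untangling DNA. Mki67 (chromosome 7, 135689784 to 135716361, mm10) measured 49.8, 36.7 and 48.4 CPM in vehicle replicates 1 to 3 and 47.1, 22.3 and 65.6 CPM in those of ABT263. The highest and the lowest library were both from ABT263 mice, and the group means were 45 ± 7.18 and 45.02 ± 21.7 CPM (log2 fold change 0.0010, SE 0.38). Top2a (chromosome 11, 98992943 to 99024189) measured 38.0, 34.9 and 34.8 CPM in vehicle replicates 1 to 3 and 40.6, 17.9 and 46.2 CPM in those of ABT263 (log2 fold change -0.041, SE 0.34). The SD of Top2a was 1.78 CPM over the vehicle libraries and 14.99 CPM over those of ABT263.

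Cyclin A and the B-type cyclins activate CDK1, the kinase that drives entry into mitosis. Cdk1 (chromosome 10, 69335146 to 69352938, mm10) measured 11.6, 20.0 and 11.3 CPM in vehicle replicates 1 to 3 and 20.3, 4.99 and 16.5 CPM in those of ABT263 (log2 fold change -0.039, SE 0.52). Ccna2 measured 9.28, 11.9 and 11.1 CPM in vehicle replicates 1 to 3 and 16.2, 5.20 and 15.2 CPM in those of ABT263 (log2 fold change 0.18, SE 0.43). Ccnb1 measured 8.33, 9.55 and 8.82 CPM in vehicle replicates 1 to 3 and 13.2, 2.92 and 10.5 CPM in those of ABT263 (log2 fold change -0.0049, SE 0.52). For Ccna2 and Ccnb1, ABT263 replicates 1 and 3 were both above every vehicle library and ABT263 replicate 2 was below every one. Ccnb2 measured 8.56, 14.1 and 6.79 CPM in vehicle replicates 1 to 3 and 11.0, 3.05 and 8.68 CPM in those of ABT263 (log2 fold change -0.38, SE 0.52).

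The kinases Aurora A, Aurora B and PLK1 build the spindle and correct its attachments, and survivin (Birc5) belongs with Aurora B to the chromosomal passenger complex. All 4 genes had a negative fold change, none of them called. Aurkb measured 7.63, 11.4 and 6.70 CPM in vehicle replicates 1 to 3 and 9.07, 4.13 and 6.59 CPM in those of ABT263 (log2 fold change -0.38, SE 0.37, adjusted p = 0.840). Birc5, also known as an inhibitor of cell death, spanned 5.21-fold, with 7.55, 17.7 and 6.68 CPM with vehicle and 12.7, 3.41 and 8.59 CPM with ABT263. Its log2 fold change was -0.37 (SE 0.58) and 0.21 without vehicle replicate 2. Aurka ranged from 4.78 to 8.26 CPM with vehicle and from 2.95 to 6.88 CPM with ABT263, and Plk1 from 6.19 to 7.37 and from 2.77 to 8.09 CPM, with log2 fold changes of -0.16 and -0.19. The spindle checkpoint genes Bub1 (-0.023) and Bub1b (-0.27) had fold changes within their errors of 0.51 and 0.41. Bub1b measured 10.8, 17.8 and 9.52 CPM in vehicle replicates 1 to 3 and 12.5, 5.53 and 13.6 CPM in those of ABT263, so that again the second replicates were the extremes.

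Spindle assembly and the division of the cell body use TPX2, the motors KIF11, KIF20A and KIF23, the bundling protein PRC1 and NUSAP1. Log2 fold changes of these 6 genes ran from -0.14 (Kif11) to 0.22 (Prc1). Prc1 was highest in ABT263 replicate 3, at 27.2 CPM, and lowest in ABT263 replicate 2, at 7.08 CPM, with 14.8 to 17.9 CPM in the vehicle libraries. Tpx2 ranged from 13.9 to 20.3 CPM with vehicle and stood at 18.3, 6.95 and 20.5 CPM with ABT263. The motor genes were also lowest in ABT263 replicate 2, at 6.27 (Kif11), 3.96 (Kif20a) and 3.69 CPM (Kif23) and the other libraries at 11.6 to 15.4, 7.79 to 12.4 and 7.998 to 10.8 CPM. Nusap1 was an exception to the low level in ABT263 replicate 2, with 10.2, 9.84 and 10.1 CPM with ABT263 and 9.20, 10.8 and 7.17 CPM with vehicle. Exons of Nusap1 overlap those of Oip5.

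At the centromere, CENPA replaces histone H3, and CENPE and CENPF act at the kinetochore. Cenpa measured 11.4, 19.5 and 10.5 CPM in vehicle replicates 1 to 3 and 13.8, 6.22 and 10.5 CPM in those of ABT263 (log2 fold change -0.44, SE 0.38, edgeR adjusted p = 0.810). Cenpf went the other way in vehicle replicate 2, at 10.1, 4.45 and 11.7 CPM with vehicle and 7.29, 5.54 and 11.7 CPM with ABT263. Cenpe was also lower in vehicle replicate 2 (6.00 CPM) than in replicates 1 and 3 (9.23 and 8.12 CPM).

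CDC20 and the enzyme UBE2C serve the anaphase-promoting complex, which ends mitosis. Cdc20 measured 7.15, 12.2 and 7.94 CPM in vehicle replicates 1 to 3 and 11.2, 5.11 and 9.04 CPM in those of ABT263 (log2 fold change -0.11, SE 0.37). Ube2c measured 12.1, 15.2 and 10.6 CPM in vehicle replicates 1 to 3 and 29.7, 12.3 and 10.9 CPM in those of ABT263, and its log2 fold change of 0.48 (SE 0.42, adjusted p = 0.811) became -0.13 without ABT263 replicate 1. Exons of Ube2c overlap those of Tnnc2.

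Differences between single libraries were shared by most of the 43 genes. ABT263 replicate 2 was the lowest of the 6 libraries for 20 of 23 mitotic genes and 16 of 20 S-phase genes, against 20.8% of all genes tested. Vehicle replicate 2 was the highest library for 16 of 20 S-phase genes and 8 of 23 mitotic genes, against 30.0% of all genes. ABT263 replicate 3 was the highest for 9 of 23 mitotic genes and 1 of 20 S-phase genes, against 11.1% of all genes. The ratio of the highest to the lowest library had a median of 2.94 for mitotic genes, 2.26 for S-phase genes and 2.14 for all genes tested.

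As means of log2 CPM over the set, mitotic genes reached 3.36, 3.67 and 3.34 in vehicle replicates 1 to 3, against 3.72, 2.41 and 3.67 in those of ABT263. S-phase genes reached 3.95, 4.60 and 3.84 in vehicle libraries, and 4.34, 3.39 and 4.04 with ABT263. In both sets ABT263 replicates 1 and 3 were above the median vehicle library and replicate 2 was below every vehicle library. The mean of mitotic genes minus that of S-phase genes was -0.59, -0.93 and -0.50 with vehicle and -0.62, -0.98 and -0.36 with ABT263. This balance was -0.67 ± 0.22 with vehicle and -0.65 ± 0.31 with ABT263 (SD, n = 3), a difference of 0.020 that is smaller than either spread. It was lowest in replicate 2 of each group, the library with the highest S-phase level among vehicle and the lowest mitotic level among ABT263.

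Leaving out replicate 2 of both groups removed the vehicle library with the highest mean and the ABT263 library with the lowest mean of these genes, so that higher fold changes followed from the choice of libraries. Fold changes were then positive for 20 of 20 S-phase genes (median 0.25) and 21 of 23 mitotic genes (median 0.37), beside 52.4% of all genes (median 0.018). None of the 43 was called, and 0 of all 15122 genes tested in that fit were. These values show how far the direction depended on the pair and are no evidence of a rise. Leaving out single libraries gave medians from -0.36 to 0.16 for mitotic genes and from -0.44 to 0.075 for S-phase genes. The medians turned positive when either library of the pair was dropped. They were 0.16 (mitotic) and 0.0084 (S-phase) when ABT263 replicate 2 was dropped, and 0.050 and 0.075 when vehicle replicate 2 was.

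**Figure D3:**
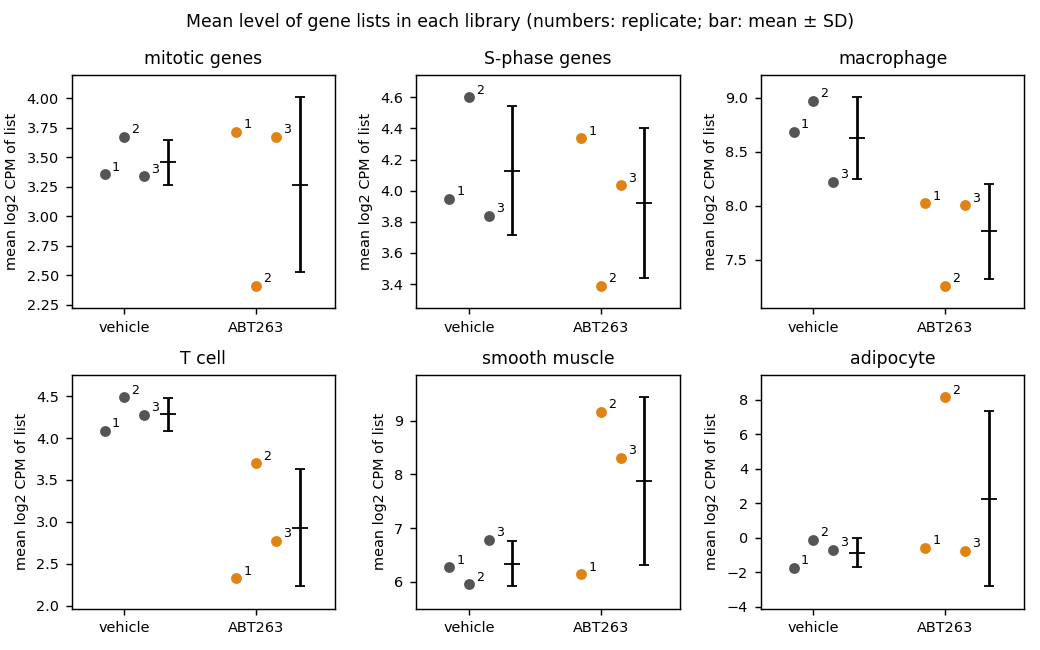
Mean log2 CPM of 6 gene lists in each library (points, numbered by replicate) with the mean and SD of each group (bars, n = 3), each panel on its own scale. ABT263 replicate 2 has the lowest mitotic (2.41) and S-phase (3.39) means, the lowest macrophage mean and the highest smooth muscle and adipocyte means.

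Plaque holds many cell types, and in bulk RNA a lower number of dividing cells and less RNA per dividing cell cannot be told apart. Marker levels were summed per library after scaling to library totals. The 15 macrophage genes summed to 8718 to 16330 CPM with vehicle and 4392 to 9094 CPM with ABT263, the highest being vehicle replicate 2 and the lowest ABT263 replicate 2. The 8 adipocyte genes summed to 3158 CPM in ABT263 replicate 2 and to at most 265 CPM in every other library. Outside ABT263 replicate 2, nearly all of that sum was Fabp4, at 58.78 to 264.7 CPM. Every other gene of the list stayed at or under 0.9416 CPM in those libraries (Pck1 in vehicle replicate 2). Adipoq measured 381.6 CPM in ABT263 replicate 2 and at most 0.498 CPM elsewhere. The 10 smooth muscle genes summed to 2480 to 3673 CPM with vehicle and to 2565, 17140 and 9541 CPM with ABT263. The 7 fibroblast genes summed to 2055 to 3389 CPM with vehicle and 3578 to 6049 CPM with ABT263. The 8 endothelial genes summed to 558 CPM in vehicle replicate 2 and 1719 to 5486 CPM in the other libraries. Cartilage genes (8) summed to 1345 to 2462 CPM with vehicle and 739 to 1188 CPM with ABT263, and skeletal muscle genes (6) to at most 8.88 CPM outside ABT263 replicate 3 (38.1 CPM). The part of this tissue mixture in the levels of the 43 genes was not tested. All markers of these 7 lists were detected in at least 1 library.

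Blood and lymphoid lists cover precursors that divide in bone marrow and thymus, and their order of libraries varied. The 8 thymocyte genes summed to 81.9 to 195 CPM with vehicle and to 56.0, 263 and 69.1 CPM with ABT263, the highest being ABT263 replicate 2, the lowest library for 36 of the 43 genes. Cd1d1 gave 58.9 CPM of that highest sum and 4.03 to 8.62 CPM in the other libraries. With TMM scaling, vehicle replicate 1 was highest for 4 of the 8 thymocyte genes and ABT263 replicate 2 for 2. Their mean log2 CPM was 3.78 and 3.96 in those libraries. The 7 genes of immature granulocytes summed to 21.2 to 58.5 CPM with vehicle and 1.96 to 20.9 CPM with ABT263, with Mpo at 0 counts in vehicle replicate 1 and ABT263 replicate 2 (3 counts would be 0.0446 and 0.0477 CPM). The 11 T cell genes found in the table summed to 331 to 428 CPM with vehicle and 208.5 to 238 CPM with ABT263, and the 8 B cell genes to 22.04 to 88.1 and 5.24 to 16.4 CPM. Of the T cell sum, Il7r took 250, 111 and 179 CPM with vehicle and 171.5, 63.45 and 134.5 CPM with ABT263. The mean log2 CPM of the T cell genes was 4.09, 4.485 and 4.28 with vehicle and 2.33, 3.70 and 2.77 with ABT263. By that mean, ABT263 replicate 2 lay nearest to the vehicle libraries. The 8 red cell and platelet genes summed to 725 to 967.5 CPM with vehicle and to 3471, 2057 and 161 CPM with ABT263, with Hbb-bt at 0 in all libraries. Nearly all of that sum was Alas2, the first enzyme of haem synthesis in red cells, at 908, 680 and 765 CPM with vehicle and 3385, 1974 and 141 CPM with ABT263. Klf1, a red cell transcription factor, was highest in vehicle replicate 2 (0.860 CPM). The platelet genes Pf4, Itga2b and Gp9 were highest in vehicle replicate 3, at 36.0, 63.2 and 14.7 CPM. Germinal centre genes (5) summed to 107.5 to 112.9 CPM with vehicle and 92.4 to 109.3 CPM with ABT263, and neutrophil genes (6 found) to 120 to 230 and 58.4 to 132 CPM. The part of these cells in the levels of the 43 genes was not tested.

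Departures of single libraries from the others of their group varied with the length of genes. For vehicle replicate 2, log2 CPM minus the mean of vehicle replicates 1 and 3 fell with exon length across the 23 mitotic genes (r = -0.71 with log2 exon length), from 1.32 for Birc5 to -1.29 for Cenpf. The same correlation was -0.28 across the 20 S-phase genes and -0.38 across 14496 genes with a length, and genes of 1 library are not independent replicates. The median departure was 0.41 for mitotic genes and 0.67 for S-phase genes. The 3 departures within a group depend on each other, and vehicle replicates 1 and 3 gave r = 0.68 and 0.61 across mitotic genes. The ABT263 libraries gave r = -0.56, 0.024 and 0.49 across mitotic genes and -0.15, 0.0012 and 0.18 across all genes. The relation was therefore not particular to vehicle replicate 2, whose value across all genes was -0.38. All 43 genes of ABT263 replicate 2 were below the mean of ABT263 replicates 1 and 3. Rn45s, the ribosomal RNA precursor, took 1.74% of counts in vehicle replicate 2 and 0.304% to 0.553% in the other libraries. Whether RNA handling has a part in the departure of vehicle replicate 2 was not tested.

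**Figure D4:**
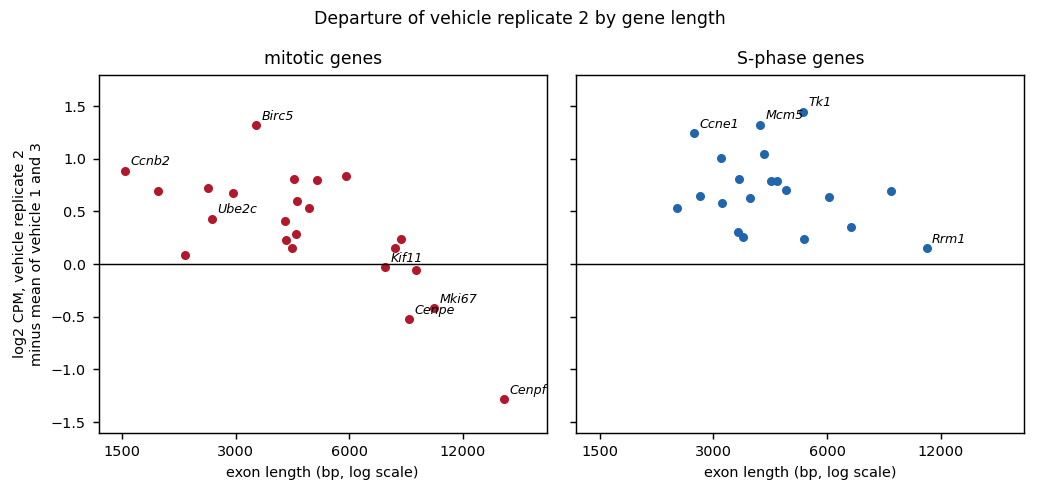
Departure of vehicle replicate 2 from the mean of vehicle replicates 1 and 3 in log2 CPM (y axis) against exon length in bp on a log scale (x axis), 1 point per gene. Mitotic genes (left, n = 23) range from 1.32 for Birc5 to -1.29 for the longest gene, Cenpf, while all 20 S-phase genes (right) are above 0.

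Other genes of the cycle were listed beside the 43. Of 34 further S-phase genes, 26 had a negative fold change (median -0.11), and of 46 further mitotic genes 28 did (median -0.045). None passed the threshold by edgeR. Anln, which encodes anillin, a scaffold of the contractile ring, was the 1 gene of both lists at an unadjusted p under 0.05. It measured 19.8, 17.1 and 25.6 CPM in vehicle replicates 1 to 3 and 27.2, 50.2 and 59.3 CPM in those of ABT263, with groups that did not overlap (log2 fold change 1.13, SE 0.32, edgeR adjusted p = 0.592). By DESeq2 its adjusted p was 0.102. In ABT263 replicate 2, the lowest library for 36 of the 43 genes, Anln was above every vehicle library. Kif15, a spindle motor, and Cdc25c, the phosphatase that activates CDK1, had the next smallest p, at -0.46 (SE 0.34) and -0.91 (SE 0.69) on the log2 scale. Among the further S-phase genes, those of smallest p were Cdca7 (-0.29), whose product is a chromatin protein, the flap nuclease gene Fen1 (-0.47) and Gmnn (-0.48), which encodes geminin, the inhibitor of CDT1. Groups did not overlap for Cdca7 and for Cdc7, both lower with ABT263 (2 of 34, or 5.88%, against 6.31% of all genes). Cdca7 measured 9.57, 9.72 and 8.19 CPM in vehicle libraries and 7.12, 8.18 and 7.11 CPM in ABT263 libraries.

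Genes that govern entry into the cycle had 10 of 16 negative fold changes (median -0.11). Ccnd2, a D-type cyclin, measured 130, 66.4 and 138 CPM in vehicle libraries, against 161, 161.5 and 178 CPM with ABT263. All ABT263 libraries were above all vehicle libraries, and the log2 fold change was 0.58 (SE 0.30, edgeR adjusted p = 0.638). Groups did not overlap in the upward direction for 5.68% of all genes. Rbl1, which encodes the pocket protein p107, and E2f4, the E2F of resting cells, gave -0.29 (SE 0.20) and -0.21 (SE 0.18) on the log2 scale.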

How the data were processed

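RNA of aortic arch plaque was sequenced in 3 vehicle and 3 ABT263 libraries, made per the labels' protocols with a TruSeq RNA v2 kit, which does not mark strand, so sense and antisense reads were not separable. The authors deposited 1 table of raw counts per gene symbol. Per the submitters' processing notes the build was mm10, and the tools were featureCounts 1.4.6 (Subread), TopHat2 2.0.14 and Bowtie2 2.2.6. The annotation and the treatment of multiply mapped reads were not stated. Library totals were 62930547 to 110452098 counts, so that 3 counts, the limit a count of 0 allows, came to 0.0272 to 0.0477 CPM (counting error only).

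Groups came from the sample titles, and replicate numbers follow accession order and pair nothing. Genes were kept by filterByExpr of edgeR 4.0.16 (R 4.3.3; minimum count 10, minimum total 15), scaled by TMM and tested with the quasi-likelihood F-test on the group alone, with Benjamini-Hochberg adjustment over all 15222 genes. Standard errors were derived from the log2 fold change and F, and 95% intervals use the test's degrees of freedom. DESeq2 1.42.0, limma-voom (limma 3.58.1), other scalings, no filter and leaving out libraries were the alternatives. The procedure was tested on simulated counts. Means of log2 CPM used a prior count of 2. Lengths and positions came from GENCODE M21 (GRCm38, which mm10 denotes), and 14 of the 43 genes had exons overlapping another gene, which makes their counts uncertain (Top2a, Ccna2, Plk1, Cdc20, Kif20a, Nusap1, Prc1, Ube2c, Ccne2, Mcm7, Tk1, Cdc45, Gins2 and Chaf1a). Adgre1 and Cnmd were read under the older symbols Emr1 and Lect1.

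The 43 genes, the further lists and the libraries to leave out were chosen with earlier results of these data known. The rule for named genes took 10 fixed genes and, in each set, the 5 of smallest p and the 2 of widest span, and of each list of other cycle genes the 3 of smallest p. Others were added after their values were seen.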

Additional observations from a re-analysis of the deposited data

How the results depend on the processing

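No paired analysis was possible because the labels give no replicate numbers that the groups share. None of the 43 genes was called under any alternative run, and the count over all genes was 0 except with DESeq2 (153). With replicate 2 of both groups left out, the median fold change of S-phase genes was 0.25, against -0.21 over all libraries. Over the fits without 1 library the median ranged from -0.36 to 0.16 for mitotic and from -0.44 to 0.075 for S-phase genes, and the group difference in mitotic minus S-phase level from -0.13 to 0.18. The cause of these shifts was not tested. Depth was no limit on detection, since the lowest count of any of the 43 genes was 53. Library totals without composition scaling raised the median of all genes by about 0.09 on the log2 scale.

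Directions of single uncalled genes depended on the libraries. With replicate 2 of both groups left out, 30 genes changed sign: Top2a (0.25), Ccnb1 (0.47), Ccnb2 (0.36), Cdk1 (0.68), Bub1 (0.60), Bub1b (0.36), Aurka (0.42), Aurkb (0.13), Plk1 (0.18), Cdc20 (0.42), Birc5 (0.58), Tpx2 (0.47), Kif11 (0.13), Kif20a (0.41), Kif23 (0.37), Cenpa (0.15), Ccne1 (0.55), Cdc6 (0.26), Cdt1 (0.0241), Mcm2 (0.0189), Mcm3 (0.0448), Mcm5 (0.50), Mcm7 (0.14), Pcna (0.0961), Rrm2 (0.25), Tyms (0.21), Tk1 (0.42), E2f1 (0.30), Gins2 (0.47), Uhrf1 (0.23). With library totals the genes that changed sign were Top2a (0.0335), Ccnb1 (0.0709), Cdk1 (0.0369), Bub1 (0.0472), Kif20a (0.0217), Kif23 (0.0398), Cdc6 (0.0361), with RLE size factors Mki67 (-0.0076), with DESeq2 Mki67 (-0.0076) and with limma-voom Mki67 (-0.12), Cenpf (0.0433), Chaf1a (-0.0386). Leaving out 1 library at a time turned the sign of 36 genes at least once, with log2 fold changes over those fits of Mki67 -0.37 to 0.33, Top2a -0.30 to 0.28, Ccnb1 -0.41 to 0.42, Ccnb2 -0.746 to 0.0022, Ccna2 -0.0756 to 0.549, Cdk1 -0.41 to 0.36, Bub1 -0.27 to 0.37, Bub1b -0.498 to 0.0499, Aurka -0.37 to 0.13, Plk1 -0.46 to 0.16, Cdc20 -0.37 to 0.16, Birc5 -0.83 to 0.21, Tpx2 -0.36 to 0.27, Kif11 -0.45 to 0.15, Kif20a -0.38 to 0.31, Kif23 -0.28 to 0.32, Cenpe -0.58 to 0.11, Cenpf -0.45 to 0.18, Nusap1 -0.0052 to 0.289, Prc1 -0.14 to 0.62, Ube2c -0.13 to 0.73, Ccne1 -0.80 to 0.15, Ccne2 -0.24 to 0.58, Cdc6 -0.78 to 0.19, Mcm4 -0.027 to 0.127, Mcm5 -0.58 to 0.26, Mcm6 -0.13 to 0.29, Mcm7 -0.45 to 0.0369, Rrm1 -0.0721 to 0.182, Rrm2 -0.432 to 0.0057, Tyms -0.297 to 0.0686, Tk1 -0.832 to 0.0894, E2f1 -0.368 to 0.0916, Cdc45 -0.0975 to 0.418, Gins2 -0.42 to 0.29, Chaf1a -0.31 to 0.29. Aurkb, Cenpa, Cdt1, Mcm2, Mcm3, Pcna and Uhrf1 stayed negative in all 6 of those fits. In the 250 bases before the start alone, a CHR word was found for 47.4% of mitotic genes and 19.6% of all genes.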

Other observations

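The level of the cell division genes was also set against lists of cell type markers, a measure chosen after the values were seen. All 15 macrophage genes had a negative fold change, none of them called by edgeR. At an unadjusted p under 0.05 edgeR listed 6 of the 15, against 8.38% of all genes. The groups did not overlap for 8 of the 15, all lower with ABT263, against 6.31% of all genes in that direction. The same counts were 7 and 8 of 11 T cell genes, and 6 and 6 of 8 B cell genes. The mean log2 CPM of the mitotic genes minus that of 15 macrophage genes was -5.33, -5.30 and -4.89 with vehicle and -4.30, -4.85 and -4.33 with ABT263. For the S-phase genes the same difference was -4.74, -4.37 and -4.39 with vehicle and -3.69, -3.87 and -3.97 with ABT263. Relative to macrophage genes, both sets were higher in each of the 3 ABT263 libraries than in any vehicle library. For mitotic genes the gap was narrow, between -4.85 in ABT263 replicate 2 and -4.89 in vehicle replicate 3. The macrophage mean alone already separated the groups, so a set that did not change would give the same result. The sets' own means overlapped between groups and were lower on average with ABT263 (by -0.19 for mitotic and -0.21 for S-phase genes). The separation is therefore no evidence of a rise in either set. The macrophage mean itself was 8.69, 8.97 and 8.22 with vehicle and 8.02, 7.26 and 8.0048 with ABT263.

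Against 10 smooth muscle genes the groups overlapped. The mitotic mean minus the smooth muscle mean was -2.92, -2.28 and -3.45 with vehicle and -2.42, -6.76 and -4.64 with ABT263, and for S-phase genes it was -2.32, -1.35 and -2.95 with vehicle and -1.80, -5.78 and -4.27 with ABT263. Against the 7 cartilage genes that passed the filter the mitotic difference was -2.29, -1.95 and -2.83 with vehicle and -1.22, -2.18 and -1.66 with ABT263, so those groups overlapped as well. The S-phase difference from cartilage genes was -1.70, -1.02 and -2.33 with vehicle and -0.60, -1.20 and -1.29 with ABT263, which also overlapped.

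The other lists of the 6 gave no common direction. Against T cell genes the group means of the mitotic difference were -0.83 with vehicle and 0.33 with ABT263, against endothelial genes -3.60 and -4.24, and against fibroblast genes -2.89 and -4.32. For S-phase genes the same means were -0.15 and 0.99, -2.93 and -3.59, and -2.21 and -3.66. The groups overlapped in each of these 6 differences, so among the 6 lists only the macrophage list gave differences whose groups did not overlap. By their own means, T cell genes (4.09 to 4.485 with vehicle, 2.33 to 3.70 with ABT263) also separated the groups. So did cartilage genes (5.62 to 6.17 and 4.59 to 5.33) and B cell genes, a list not among the 6 (1.05 to 3.10 and -1.12 to 0.25). Outside the 6, the mean of 5 immature granulocyte genes was 1.38, 2.32 and 1.18 with vehicle and 0.34, 0.12 and -2.12 with ABT263. That mean alone separated the groups too, and relative to it both sets were higher in every ABT263 library than in any vehicle library. The result was therefore not particular to macrophage genes. None of these differences was tested.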
